A study of Mus musculus with 6 samples.

Results

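The 8 genes described here, Tcp1, Cct2, Cct3, Cct4, Cct5, Cct6a, Cct7 and Cct8, encode all subunits of TRiC (also CCT), the chaperonin of the cytosol. They are 8 of the 22969 gene identifiers in the count table and 8 of the 12350 genes tested. They were chosen by expression values, as a complete protein complex, after Cct3 had the smallest p of all genes tested in the comparison of libraries labelled Rbfox2-deleted with controls. That comparison therefore helped to choose them, so its values for the 8 genes are given below as a description, and its test calls support nothing about them.

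TRiC is a double ring in which each ring holds a copy of every subunit. Newly made proteins enter its cavity and fold there while the subunits bind and hydrolyse ATP. Actins and tubulins depend on it, as do WD-repeat proteins such as the mitotic activator Cdc20. Prefoldin hands it unfolded actin and tubulin chains, and phosducin-like proteins assist it with some clients. Hematopoietic stem cells make protein slowly and are sensitive to misfolded protein, which is the setting in which the series examined Rbfox2, a regulator of alternative splicing.

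RNA was sequenced from hematopoietic stem cells sorted from bone marrow of adult C57BL/6 mice as lineage-negative, Sca-1+, c-Kit+, CD150+ and CD48-. There were 3 libraries labelled Rbfox2-deleted, from mice with both Rbfox2 alleles floxed and the Vav1-cre transgene, which recombines throughout blood cells. The 3 control libraries came from mice with floxed Rbfox2 alleles and no Cre, so an effect of Cre itself cannot be told apart from that of the deletion. About 500 cells went into each Smart-seq2 library, a method that amplifies full-length cDNA by PCR without molecular identifiers and without keeping the strand. The purpose, per the title of the series, was to relate Rbfox2 to protein homeostasis and self-renewal.

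Several properties of the libraries bear on every value below. Total counts were 23474895, 35650284 and 33345370 in the libraries labelled Rbfox2-deleted 1, 2 and 3, and 47895459 to 55151484 in the controls, so every control was deeper. Every control also had more genes detected (14154, 15950 and 15972 in the libraries labelled Rbfox2-deleted 1, 2 and 3, and 16675 to 17087 in controls) and a larger share of mitochondrial counts (3.90%, 5.19% and 4.05% in the libraries labelled Rbfox2-deleted, and 5.52% to 5.58% in controls). Controls 1 and 3 were nearly identical (chi-square per degree of freedom 3.44, against 156 or more for every other pair of libraries). Their counts were summed to 1 sample, which gives n = 3 and n = 2. Rbfox2 itself had 2, 87 and 10 counts in the libraries labelled Rbfox2-deleted and 238, 11 and 250 in controls 1, 2 and 3. The library labelled Rbfox2-deleted 2 thus held more Rbfox2 reads than control 2. Relative to total counts, with no TMM factor, Rbfox2 was at 0.0852, 2.44 and 0.300 CPM in libraries labelled Rbfox2-deleted 1, 2 and 3. Controls 1, 2 and 3 had 4.97, 0.213 and 4.53 CPM. On that scale the library labelled Rbfox2-deleted 3 also lay above control 2, though from only 10 and 11 counts. The labels alone therefore carry the directions below. The library labelled Rbfox2-deleted 1 stood apart on the first principal component (63.9% of the variance) at 212, while the other samples lay between -55.8 and -50.8. It and the library labelled Rbfox2-deleted 3 held 2821 and 2467 counts of Xist and none of Eif2s3y, whereas the other 4 libraries held at most 55 counts of Xist and at least 576 of Eif2s3y, so the sex of the mice was not balanced. Genes of the labelled cell type were detected in every library. The summed level of 8 stem cell genes was 1455 to 1588 CPM (reads of a gene relative to the TMM-adjusted size of its library) in libraries labelled Rbfox2-deleted and 1719 to 1809 CPM in controls, and Cd48 was at most 0.0772 CPM in any library. Of other cell types, 4 B cell markers summed to at most 0.202 CPM, and Cd3e, which defines T cells, was at most 0.0515 CPM, while the sum with Nkg7 and 2 other T and NK genes was 80.1 to 98.5 CPM in libraries labelled Rbfox2-deleted and 83.2 to 104 CPM in controls. Genes of endothelium and stroma summed to at most 1.26 CPM. The sum of 4 megakaryocyte and platelet genes was 39.7 to 181 CPM in libraries labelled Rbfox2-deleted and 262 to 293 CPM in controls. That of 5 granulocyte and monocyte genes, most of it Lyz2, was 1185 to 1547 CPM in libraries labelled Rbfox2-deleted and 1574 to 2080 CPM in controls, and that of 4 erythroid genes was 43.9 to 391 CPM in libraries labelled Rbfox2-deleted and 79.0 to 140 CPM in controls. The part that these differences, and those in depth, mitochondrial share and sex, have in the values below was not tested.

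The 8 genes lie on 8 different chromosomes of mm10, so no pair of them shares a promoter. Tcp1 (ENSMUSG00000068039) lies on chromosome 17 from 12915701 to 12925067 on the plus strand, and Cct2 (ENSMUSG00000034024) on chromosome 10 from 117051001 to 117063814 on the minus strand. Cct3 (ENSMUSG00000001416) lies on chromosome 3 from 88297116 to 88321767 (plus) and Cct4 (ENSMUSG00000007739) on chromosome 11 from 22990519 to 23003780 (plus). Cct5 (ENSMUSG00000022234) lies on chromosome 15 from 31590800 to 31601804 (minus) and Cct6a (ENSMUSG00000029447) on chromosome 5 from 129786998 to 129846371 (plus). Cct7 (ENSMUSG00000030007) lies on chromosome 6 from 85451514 to 85468475 (plus) and Cct8 (ENSMUSG00000025613) on chromosome 16 from 87483326 to 87495873 (minus). The counts cover exons. All but Cct6a are annotated as protein coding, and GENCODE M21 lists Cct6a as a processed transcript. Some counts are uncertain, because the strand was not kept and how shared reads were counted is not stated in the sources used. Exons of Tcp1 overlap those of Acat3 on the opposite strand over 571 bases and those of Mrpl18 over 141, and 445 bases of its transcript are 98.7% identical to Acat2. Opposite-strand exons also overlap Cct6a (Psph, 452 bases), Cct7 (Pradc1, 214 bases) and Cct8 (Usp16, 192 bases). Cct3 has a pseudogene copy, Cct3-ps1, which is 91.4% identical over 1650 bases, and the locus Gm5380 matches Cct7 at 93.5% over 569 bases.

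The 250 bases upstream of the RefSeq start (GRCm38.p6, 5′ to 3′) are printed for 4 subunits. The Tcp1 window lies within the GENCODE gene span given above, as does that of Cct6a, which is searched below. The windows of Cct3 and Cct8 reach into their spans by some bases. Cct3 and Cct8 had the most even TMM-scaled values across the 3 libraries labelled Rbfox2-deleted. Tcp1 and Cct2 had the lowest differences from the controls in library 1. Capitals mark CCAAT boxes and the ETS-type motif CCGGAAG, on either strand.
Cct3 (chr3:88296885-88297134, plus strand): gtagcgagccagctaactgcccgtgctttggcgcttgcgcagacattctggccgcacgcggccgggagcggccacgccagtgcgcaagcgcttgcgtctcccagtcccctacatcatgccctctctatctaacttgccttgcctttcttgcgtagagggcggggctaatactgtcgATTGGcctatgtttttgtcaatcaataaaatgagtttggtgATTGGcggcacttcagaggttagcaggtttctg
Cct8 (chr16:87495870-87496119, minus strand): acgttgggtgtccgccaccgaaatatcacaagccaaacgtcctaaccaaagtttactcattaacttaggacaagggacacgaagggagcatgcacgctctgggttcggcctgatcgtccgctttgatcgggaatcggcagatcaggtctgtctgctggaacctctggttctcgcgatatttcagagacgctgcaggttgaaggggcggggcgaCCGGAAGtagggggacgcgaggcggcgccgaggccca
Tcp1 (chr17:12916079-12916328, plus strand): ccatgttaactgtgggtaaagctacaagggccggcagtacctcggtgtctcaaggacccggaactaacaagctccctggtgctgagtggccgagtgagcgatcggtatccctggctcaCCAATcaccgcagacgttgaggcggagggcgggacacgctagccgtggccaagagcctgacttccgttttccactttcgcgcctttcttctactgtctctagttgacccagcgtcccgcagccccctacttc
Cct2 (chr10:117063853-117064102, minus strand): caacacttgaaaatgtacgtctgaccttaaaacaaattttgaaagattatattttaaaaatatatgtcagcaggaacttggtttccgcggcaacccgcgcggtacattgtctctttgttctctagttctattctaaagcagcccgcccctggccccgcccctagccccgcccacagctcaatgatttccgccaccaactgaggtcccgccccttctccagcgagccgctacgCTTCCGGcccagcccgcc

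A CCAAT box stood in 4 of the 7 subunit promoters matched in the RefSeq table (Tcp1, Cct3, Cct6a and Cct7) and in 33.8% of all 32851 promoter windows of the same length. The ETS-type motif stood in Cct2 and Cct8, against 6.91% of all windows. The E-box CACGTG, which MYC binds, was in 0 of 7 windows (6.02% of all). Of the paired heat shock half-sites, GAANNTTC was in 0 of 7 (6.69% of all) and TTCNNGAA was in Cct5 (7.17% of all). Both strands were searched for each motif, and a match in these letters is a description of the window. No motif was shared by all 7 windows, and Tcp1 and Cct2 did not share one either.

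All 8 subunits had a higher mean in libraries labelled Rbfox2-deleted, beside 53.5% of all genes tested with a log2 fold change above 0, and for 7 of 8 the groups did not overlap. Together the 8 genes summed to 4445, 3702 and 3058 CPM in libraries labelled Rbfox2-deleted 1, 2 and 3, against 1211 CPM in control 2 and 1421 CPM in controls 1 and 3 (1417 and 1424 CPM taken apart). The lowest library labelled Rbfox2-deleted was 2.15 times the highest control. In libraries labelled Rbfox2-deleted the sum averaged 3735 ± 694 CPM (SD, n = 3), against 1316 ± 148 CPM in controls (SD, n = 2), a ratio of 2.84. Over all genes tested, 14.9% were higher without overlap between the groups. Since this contrast helped to choose the members, nothing is read from their count.

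**Figure D1:**
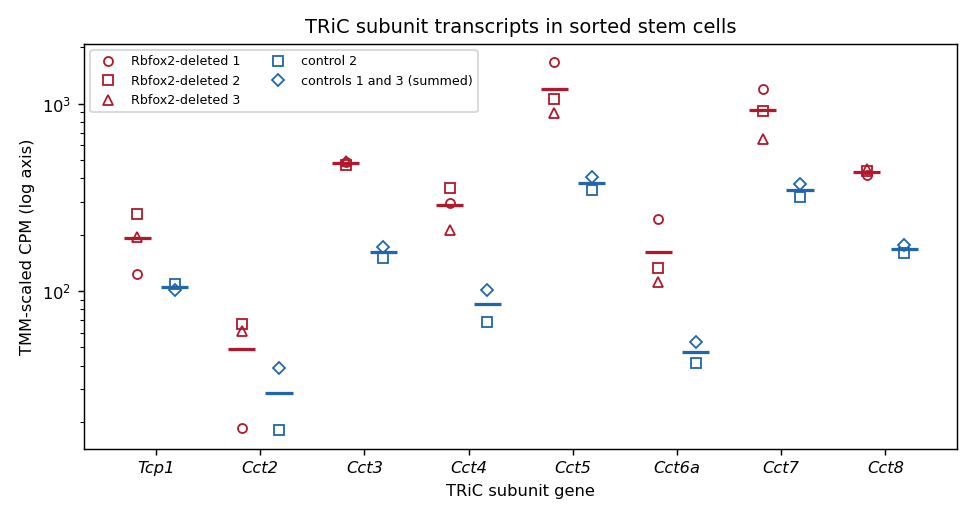
TMM-scaled CPM (log axis) of the 8 TRiC subunits in 3 libraries labelled Rbfox2-deleted (red, left of each pair) and 2 control samples (blue, right), with points for samples and bars for group means. The groups overlap only for Cct2, and the red points lie closest together for Cct3 and Cct8.

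In yeast, TRiC subunits fall into a side of the ring that binds ATP strongly (the subunits matching Cct2, Cct4, Cct5 and Cct7) and a side that binds it weakly (those matching Tcp1, Cct3, Cct6a and Cct8). On the strong side, Cct5, the epsilon subunit, which can form rings of itself alone in the human protein, was the most abundant member. It had 1662, 1059 and 893 CPM in libraries labelled Rbfox2-deleted 1, 2 and 3, against 347 CPM in control 2 and 405 CPM in controls 1 and 3. The log2 fold change (Rbfox2-deleted minus control) was 1.68 (SE 0.341). Every library labelled Rbfox2-deleted lay above every control, the lowest by 2.20 times, and library 1 was the highest.

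Cct4, the delta subunit, which like Cct5 assembles with itself in the human protein, had 296, 355 and 211 CPM in libraries labelled Rbfox2-deleted 1, 2 and 3, against 68.4 CPM in control 2 and 101 CPM in controls 1 and 3. The groups did not overlap (log2 fold change 1.76, SE 0.369), and here library 2 was the highest. Cct7, the eta subunit, had 1198, 920 and 647 CPM in libraries labelled Rbfox2-deleted 1, 2 and 3, against 319 CPM in control 2 and 371 CPM in controls 1 and 3. With a log2 fold change of 1.42 (SE 0.326), the order of the libraries was that of Cct5.

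Cct2, the beta subunit, which in human cells also acts outside the ring as a receptor for the autophagy of protein aggregates, was the exception. It had 18.6, 66.8 and 61.5 CPM in libraries labelled Rbfox2-deleted 1, 2 and 3, against 18.1 CPM in control 2 and 38.8 CPM in controls 1 and 3. The groups overlapped, because library 1 lay below controls 1 and 3 and close to control 2. The 95% exact Poisson interval was 16.8 to 20.6 CPM in library 1 and 16.9 to 19.3 CPM in control 2. These intervals cover counting error only, since PCR copies are not independent molecules. The log2 fold change of 0.79 (SE 0.779) was 1.16 without library 1, 0.48 without library 2, 0.58 without library 3, 0.35 without control 2 and 1.42 without controls 1 and 3.

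On the side that binds ATP weakly, Cct3, the gamma subunit, was nearly level across the libraries labelled Rbfox2-deleted, at 489, 473 and 492 CPM in 1, 2 and 3, against 150 CPM in control 2 and 173 CPM in controls 1 and 3. This was a log2 fold change of 1.59 (SE 0.240). The highest of these libraries was 1.04 times the lowest, and the lowest was 2.74 times the highest control. Cct8, the theta subunit, had 418, 438 and 447 CPM in libraries labelled Rbfox2-deleted 1, 2 and 3, against 159 CPM in control 2 and 177 CPM in controls 1 and 3. Its log2 fold change was 1.37 (SE 0.240), and its libraries were about as even, with the highest 1.07 times the lowest. The evenness of Cct3 and Cct8 depends on the TMM factors, which were 0.842, 1.08 and 1.17 in libraries labelled Rbfox2-deleted 1, 2 and 3. It was not examined under another scaling.

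Cct6a, the zeta subunit expressed in most tissues, had 241, 133 and 112 CPM in libraries labelled Rbfox2-deleted 1, 2 and 3, against 41.2 CPM in control 2 and 53.4 CPM in controls 1 and 3. The log2 fold change was the largest of the 8, at 1.78 (SE 0.474), and library 1 was again the highest. Tcp1, the alpha subunit, had 124, 257 and 195 CPM in libraries labelled Rbfox2-deleted 1, 2 and 3, against 108 CPM in control 2 and 101 CPM in controls 1 and 3. The groups did not overlap (log2 fold change 0.88, SE 0.392), but library 1 stood only 1.14 times above the highest control, and Tcp1 is the member whose exons overlap other genes most. Its log2 fold change was 1.10 without library 1 and 0.59 without library 2. Of genes sharing sequence with Tcp1, Acat2 had 1974, 5759 and 4267 unscaled counts in these libraries, against 2122, 2791 and 2415 in controls 1, 2 and 3. Acat3 had 181, 655 and 619, against 220, 194 and 231. Mrpl18 was lower, at 4139, 7177 and 5861, against 15313, 19362 and 16912. The part of shared reads in the Tcp1 values was not tested.

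The 8 subunits did not move by the same amount in every library. Relative to the mean of the controls, on the scale of log2(CPM + 0.5), the differences of the 8 genes ran from 1.29 to 2.08 in the library labelled Rbfox2-deleted 2 and from 0.90 to 1.61 in library 3. Library 1 ran from -0.50 (Cct2) to 2.35 (Cct6a), and the SD over the 8 genes was 0.98 there, 0.25 in library 2 and 0.24 in library 3. The median of the 8 was 1.70, 1.45 and 1.25 in libraries 1, 2 and 3, while that of all genes tested was -0.45, -0.02 and 0.05. Library 1 thus held the highest TRiC median and, for Cct2 and Tcp1, the lowest of all differences. It also had the lowest total count and the position apart on the first principal component, and the part of these in the split was not tested.

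**Figure D2:**
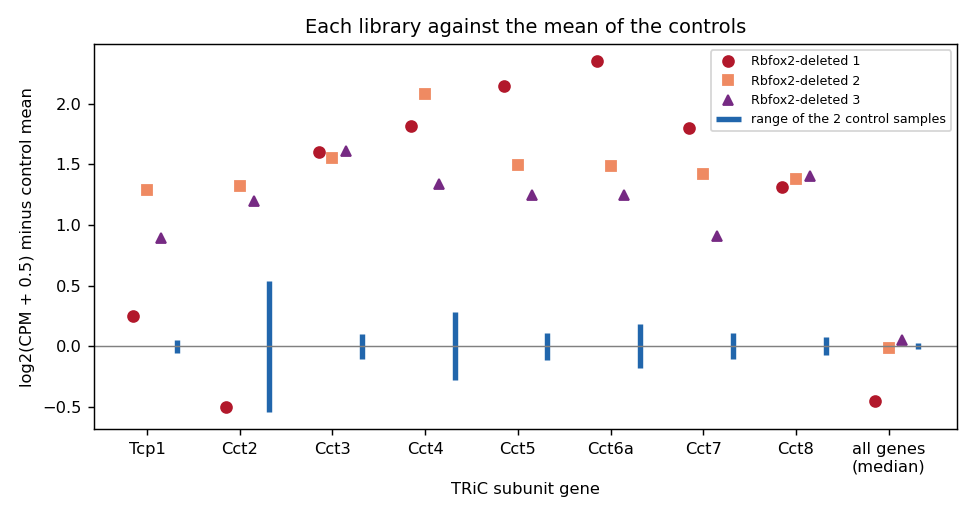
Difference of each library labelled Rbfox2-deleted from the mean of the 2 control samples in log2(CPM + 0.5), for the 8 subunits and the median of all genes tested, with the control range as a blue bar. In library 1 (red circles) Cct2 lay at -0.50 and Tcp1 at 0.25 while the other 6 lay at 1.31 or above.

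Over the 8 subunits the median log2 fold change was 1.50, against 0.11 over all 12350 genes, so the family stood 1.39 above the median gene. Without the library labelled Rbfox2-deleted 1 the 8 values lay closer together, from 1.10 (Tcp1) to 1.73 (Cct4), with a median of 1.36.

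In edgeR's quasi-likelihood test with Benjamini-Hochberg adjustment, 0 of the 8 subunits and 0% of all genes tested passed an adjusted p of 0.05. At an unadjusted p under 0.05, 6 of 8 subunits were higher (all but Tcp1 and Cct2), beside 658 genes or 5.33% of all, and 0 of 8 were lower, beside 563 genes or 4.56%. DESeq2 called 2 of 8 higher, Cct3 and Cct8, beside 1.01% of all genes higher and 1.47% in either direction. With no filter on low counts, an alternative chosen after seeing the data, DESeq2 again called 2 of 8, beside 1.15% higher and 2.31% in either direction. By limma-voom 0 of 8 and 0% of all genes passed, with 1686 genes (13.7%) at an unadjusted p under 0.05. The common dispersion was 1.09. Nothing about the members is read from these counts, and 2 control samples against 3 libraries would in any case allow no exact permutation p below 0.1 for a single value. The design text gives 3 mice per genotype, but controls 1 and 3 were nearly identical and may be repeats of 1 mouse, which the labels do not settle. The p-values reflect no more than the variation among 5 samples, which may be technical.

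A correction for transcript length changed the size of the difference and left its sign. The longest annotated transcripts of the subunits had a median of 2469 bases, against 3188 for all genes tested. After a correction for that length the subunit median was 1.16, or 1.21 above the median of all genes, and after a correction for the longest transcript of the GENCODE basic set it was 0.96, or 1.01 above. A correction for GC content (median 45.9% in the subunits and 49.7% in all genes tested) left 1.38 above. All 8 subunits kept a positive log2 fold change under each of these, with Tcp1 (0.30) and Cct2 (0.33) lowest after the basic-set correction. RNA of about 500 pooled cells per library cannot tell more RNA per cell from more cells of a type.

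**Figure D3:**
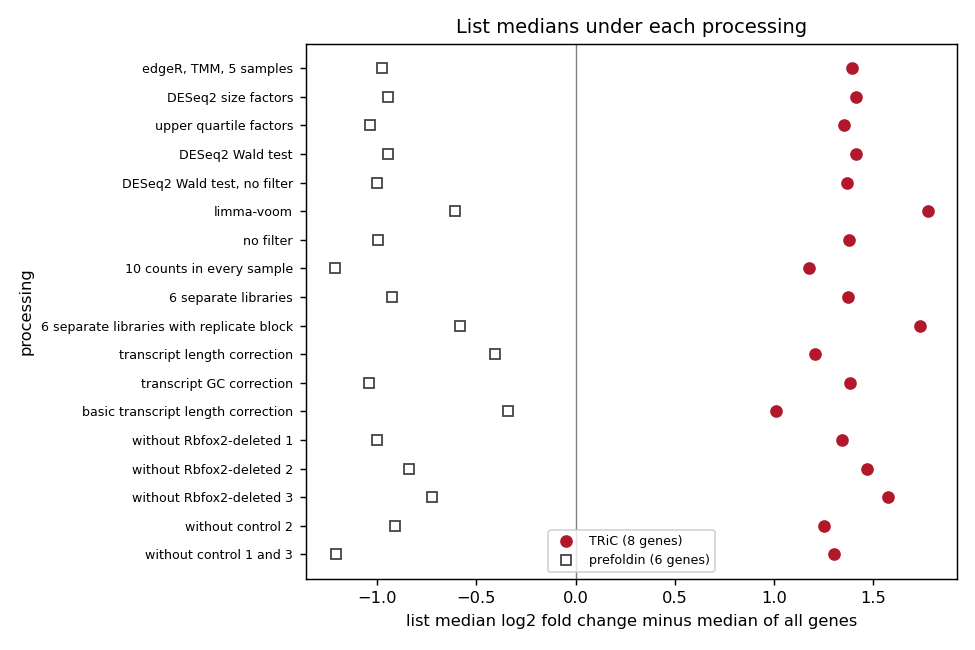
Median log2 fold change (Rbfox2-deleted minus control) of the 8 TRiC subunits (red circles) and of 6 prefoldin genes (open squares), each minus the median of all genes, under the processing named at the left. TRiC lay between 1.01 and 1.78 and prefoldin between -1.21 and -0.34.

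Whether the subunits kept their proportions was examined per length, since each ring needs a copy of every subunit. Levels were expressed as CPM per kilobase of the longest annotated transcript and as shares of the sum over the 8 subunits. For Tcp1, Cct3 and Cct7 that transcript is not in the GENCODE basic set, so shares were also computed with the longest transcript of that set. That length was chosen after seeing the data. By either length Cct5 held the largest share in every sample and Cct2 the smallest. With the merged exons as another length, Cct6a (4.10%) and not Cct2 (4.22%) was the smallest in controls 1 and 3.

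The Cct5 share was 50.1%, 39.7% and 40.1% in libraries labelled Rbfox2-deleted 1, 2 and 3, against 40.2% in control 2 and 39.6% in controls 1 and 3. Apart from library 1, the 4 samples lay within a single percentage point of each other, although the summed level differed between their groups by at least 2.15 times. The Cct2 share was 0.531%, 2.37% and 2.61% in libraries labelled Rbfox2-deleted 1, 2 and 3, against 1.98% in control 2 and 3.59% in controls 1 and 3. Its share in library 1 was the lowest of the 5 samples. Cct7 was next to Cct5, with 17.2%, 16.4% and 13.9% in libraries labelled Rbfox2-deleted 1, 2 and 3, against 17.6% in control 2 and 17.3% in controls 1 and 3. With the longest annotated transcript its groups did not overlap, but they did with the basic-set length.

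By all 3 lengths tried, Tcp1 was the only subunit whose share separated the groups, with the libraries labelled Rbfox2-deleted below both control samples. With the longest annotated transcript it held 2.03%, 5.22% and 4.75% in libraries labelled Rbfox2-deleted 1, 2 and 3, against 6.81% in control 2 and 5.34% in controls 1 and 3. The gap between library 2 and controls 1 and 3 was smaller than that between the 2 control samples. Shares within the family have no counterpart over all genes to set beside this separation, so nothing is read from it. The shares of Cct3, Cct4, Cct6a and Cct8 overlapped between the groups. With the basic-set length the controls ordered the family as Cct5 (33.5% ± 0.136), Cct7 (23.3% ± 0.157), Cct3 (13.5% ± 0.164), Cct8 (11.6% ± 0.465), Tcp1 (7.12% ± 1.18), Cct4 (5.58% ± 0.913), Cct6a (3.16% ± 0.216) and Cct2 (2.34% ± 0.968), each SD over n = 2. Tcp1 and Cct4, and Cct6a and Cct2, were neighbours whose difference was within the sum of their SDs, whereas Cct3 and Cct8 were not. With the longest annotated transcript Cct8 came before Cct3.

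The unevenness of the family, as the coefficient of variation (CV) over the 8 levels per length, averaged 107% ± 18.4 (SD, n = 3) in libraries labelled Rbfox2-deleted, against 97.2% ± 2.30 in controls (SD, n = 2). The CV was 128% in library 1, against 95.7% and 97.3% in libraries 2 and 3. The difference of 9.86 percentage points rested on library 1 and was -0.73 without it. Without library 2 it was 15.6 and without library 3 it was 14.8. Libraries 2 and 3 were therefore as uneven as the controls (98.9% in control 2 and 95.6% in controls 1 and 3) at a higher summed level.

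**Figure D4:**
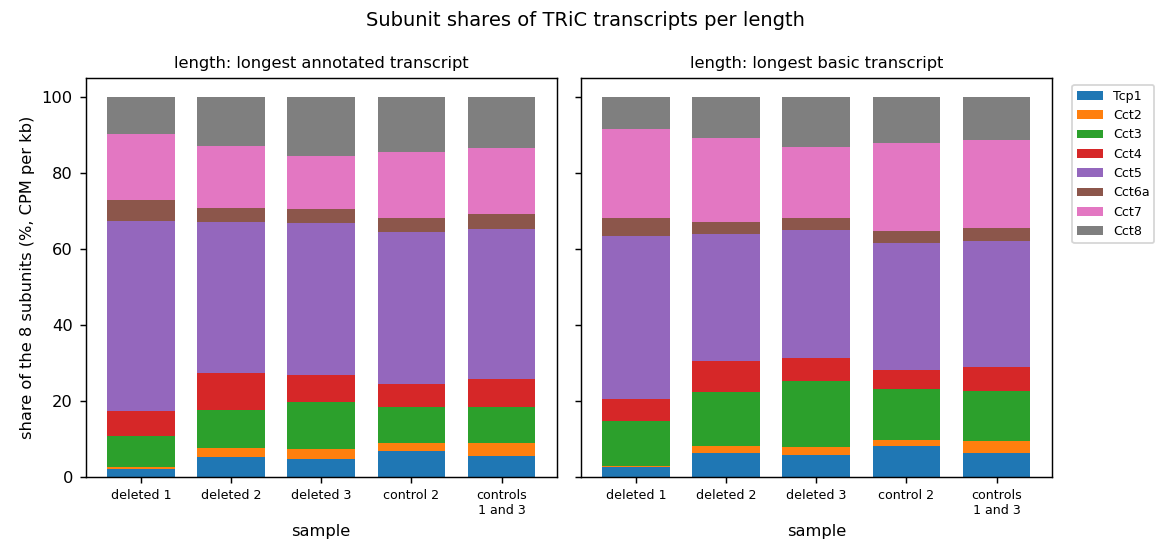
Shares of the 8 subunits (percent of the summed CPM per kilobase) in 3 libraries labelled Rbfox2-deleted and, to their right, 2 control samples, with the length of the longest annotated transcript (left panel) or of the longest basic-set transcript (right panel). Library 1 has a larger Cct5 band and smaller Tcp1 and Cct2 bands than the other 4 samples.

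Genes that work with TRiC lay on both sides of 0. Prefoldin, the complex of 6 subunits that delivers chains to TRiC, had 5 of 6 members with a log2 fold change below 0 and a median of -0.87, or -0.98 relative to all genes. No prefoldin gene passed the edgeR test over all genes. In 4 of 6 the groups did not overlap in the lower direction, beside 17.2% of all genes tested. Pfdn2 had 42.7, 85.0 and 93.7 CPM in libraries labelled Rbfox2-deleted 1, 2 and 3, against 232 CPM in control 2 and 154 CPM in controls 1 and 3, a log2 fold change of -1.39 (SE 0.447), the lowest of the list. Pfdn5 had 581, 396 and 339 CPM in libraries labelled Rbfox2-deleted, against 975 CPM in control 2 and 750.4 CPM in controls 1 and 3 (log2 -0.97, SE 0.306). For both genes every library labelled Rbfox2-deleted lay below both control samples.

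Pfdn4 (log2 -1.06, SE 0.593) and Pfdn6 (-0.76, SE 0.343) lay in the same direction without overlap, while Pfdn1 (-0.04, SE 0.430) lay near 0. Vbp1, which encodes the remaining prefoldin subunit, was the highest of the list (1.02, SE 1.004). It had 6.83, 56.3 and 62.3 CPM in libraries labelled Rbfox2-deleted 1, 2 and 3, against 19.4 CPM in control 2 and 21.9 CPM in controls 1 and 3, so that library 1 lay below the controls and the others above. Prefoldin transcripts are short, with a median of 1086 bases against 2469 for TRiC. After the length correction the prefoldin median relative to all genes was -0.40, and with basic-set lengths -0.34. The opposite signs of the medians of TRiC and prefoldin remained under each processing shown in the plot of list medians, with the prefoldin median closest to 0 after the basic-set length correction.

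Of the prefoldin-like genes, Uxt (log2 -0.82, SE 1.08) and Pdrg1 (-0.93, SE 0.324) were lower without overlap, and Uri1, which encodes a scaffold of the related complex, was at 1.04 (SE 0.703) with its groups overlapping. Among phosducin-like cochaperones, Pdcl, which helps TRiC to assemble G protein beta subunits, had 30.4, 12.8 and 9.93 CPM in libraries labelled Rbfox2-deleted 1, 2 and 3, against 3.91 CPM in control 2 and 5.26 CPM in controls 1 and 3 (log2 1.95, SE 1.08). Txndc9, whose product binds TRiC and slows its ATPase, was lower without overlap, at 63.1, 103 and 144 CPM in libraries labelled Rbfox2-deleted 1, 2 and 3, against 208 CPM in control 2 and 221 CPM in controls 1 and 3 (-1.06, SE 0.405). Pdcl3 overlapped (0.64, SE 0.509), and Pdcl2 had 0 counts in each library, where a count of 0 allows up to 3. The cochaperones of TRiC thus lay on both sides of 0, and none passed the edgeR test over all genes.

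Cct6b, the paralog of Cct6a known from testis, had 1, 134 and 0 counts in libraries labelled Rbfox2-deleted 1, 2 and 3, and 233, 0 and 255 counts in controls 1, 2 and 3. It was present or nearly absent within each group, and its log2 fold change of -0.99 had an SE of 2.98. Cct8l1, a copy of Cct8, had at most 1 count in any library. Chaperonin-like genes of the Bardet-Biedl complex differed by library too. Mkks had 0.202, 36.1 and 37.3 CPM in libraries labelled Rbfox2-deleted 1, 2 and 3, against 58.4 CPM in control 2 and 50.4 CPM in controls 1 and 3 (log2 -1.15, SE 1.53). Bbs10 (2.37, SE 2.37) and Bbs12 (-0.78, SE 2.04) had 0 counts in library 1 and at most 168 in any other. Of the mitochondrial chaperonin, Hspd1 was at 0.45 (SE 0.361) and its partner Hspe1 at -0.39 (SE 0.401), both with overlapping groups.

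Of the heat shock factors, which bind promoters of chaperone genes, Hsf1 had 117, 53.8 and 80.3 CPM in libraries labelled Rbfox2-deleted 1, 2 and 3, against 34.9 CPM in control 2 and 30.8 CPM in controls 1 and 3 (log2 1.35, SE 0.528), without overlap. Hsf2 was at -0.06 (SE 0.532). Among 11 actin and tubulin genes, the main clients, 7 lay above 0 and 4 below, with a median of 0.39, beside 53.5% of all genes above 0. The groups did not overlap for 2 higher and 2 lower of the 11, beside 14.9% and 17.2% of all genes, so these shares were near the background. Tubb6 was the highest (2.42, SE 1.29) and stood at 224 CPM in library 1 and at most 23.7 CPM in every other sample. Tuba4a was the lowest (-0.89, SE 0.305). The groups also separated for both cytoplasmic actins, in opposite directions, and these genes were chosen after their values were seen. Actg1 averaged 183 ± 11.5 CPM (SD, n = 3) in libraries labelled Rbfox2-deleted, against 73.5 ± 31.5 CPM in controls (SD, n = 2). Actb averaged 6116 ± 548 CPM in libraries labelled Rbfox2-deleted, against 8014 ± 976 CPM in controls. Of 9 other clients tested, 5 lay above 0 and 4 below (median 0.30), from Ccne1 (1.19, SE 2.23) to Vhl (-0.76, SE 1.19), and the groups overlapped for all 9.

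**Figure D5:**
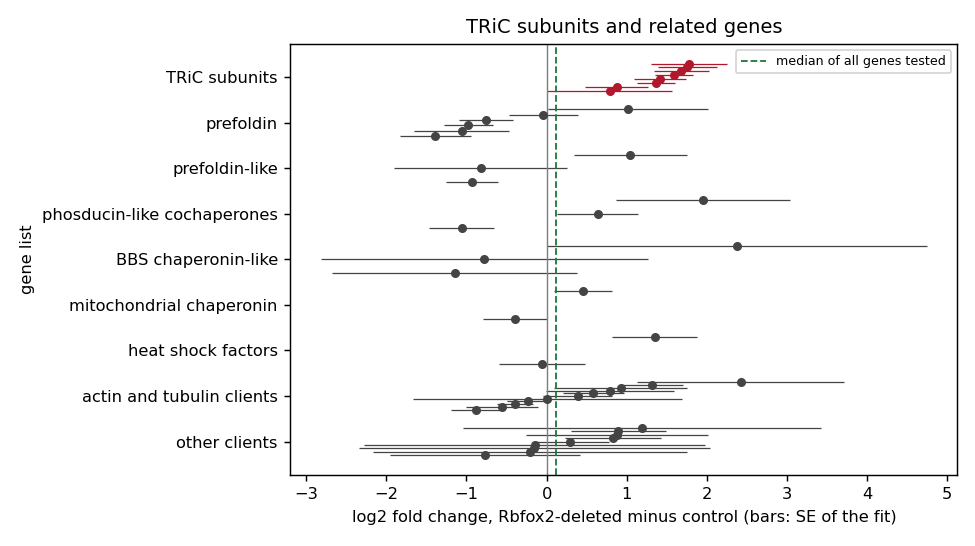
Log2 fold change (Rbfox2-deleted minus control) of each gene with the SE of the fit, for TRiC subunits (red) and the lists of related genes, with the median of all genes as a dashed line. The 8 TRiC values lie from 0.79 to 1.78, and 5 of 6 prefoldin values lie below 0.

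The genes whose levels followed the mean TRiC profile most closely were listed by the root mean square (RMS) difference of centred log2(CPM + 0.5) over the 5 samples. This is a description over few samples that share libraries and depth. Of 7295 genes with at least 10 counts in every sample, after predicted genes, pseudogenes and genes with no symbol or annotation were left out, the closest outside the family were Actr8 (RMS difference 0.0795), an actin-related subunit of a chromatin remodeller, Paics (0.0970), a purine synthesis enzyme, Arrb1 (0.102), a beta-arrestin, Gorasp2 (0.103), a Golgi stacking protein, and Gskip (0.104), a binding partner of the kinase GSK3B. The median gene differed by 0.894. Paics had 152, 166 and 150.0 CPM in libraries labelled Rbfox2-deleted 1, 2 and 3, against 51.1 CPM in control 2 and 77.6 CPM in controls 1 and 3. Cct8, the closest member, ranked 11 and Cct3 ranked 42 in this order, while Tcp1 ranked 817 and Cct2 ranked 2672. Some genes outside the family thus lay closer to its mean profile than any of its own members.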

How the data were processed

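The values are counts of reads per Ensembl gene identifier, deposited by the authors without normalization. Per the submitters' processing notes, Trimmomatic 0.39, featureCounts and DESeq2 1.36.0 were used with build mm10. The sources used here name no aligner, annotation, strand setting or treatment of shared reads. Of 23043 rows, 134 shared 60 identifiers and were summed (0.449% of counts). Symbols were matched for 22831 of 22969 identifiers. Coordinates and lengths came from GENCODE M21 on mm10, promoters from RefSeq GRCm38.p6.

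Controls 1 and 3 were summed. Counts were fitted over all genes with edgeR 4.0.16 in R 4.3.3 (TMM; filterByExpr at 10 counts per sample and 15 in total; a two-sided glmQLFTest after glmQLFit, with no covariate), with Benjamini-Hochberg adjustment at 0.05. CPM were scaled by TMM factors. The SE is the size of the log2 fold change over the root of F. The fitting code was tested on simulated counts with known changes. Alternatives were other scalings, filters, DESeq2 1.42.0, limma-voom (limma 3.58.1), left-out samples, length and GC corrections (loess per sample) and a replicate block.

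The members and lists were chosen with earlier results of these data known. Named genes were the 8 members, all genes of prefoldin and of lists of up to 4, the highest and lowest of other lists, and the 5 genes most like TRiC. Actg1 and Actb were named after their values were seen.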

Additional observations from a re-analysis of the deposited data

How the results depend on the processing

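The median log2 fold change of the 8 subunits (1.50) stayed above 0 under all 17 alternatives, as did each of the 8 subunits. It was 1.15 with upper quartile factors, 1.33 with no filter on low counts, 1.32 with at least 10 counts in every sample, 1.16 with the transcript length correction, 1.31 with the GC correction and 0.96 with the length correction on basic-set transcripts, which was chosen after seeing the data. The median of all genes was 0.11, or -0.20 with upper quartile factors, -0.27 with the replicate block, -0.32 with limma-voom and 0.12 with DESeq2 size factors. Relative to it the subunit median ran from 1.01 to 1.78. Leaving out 1 sample in turn gave subunit medians of 1.36 to 1.59. The log2 ratio of summed CPM was 1.51, or 1.15 with upper quartile factors, and 1.36 to 1.63 with a sample left out. The difference in CV ran from -0.73 to 15.6 percentage points with a sample left out, and fits without control 2 or without controls 1 and 3 assume that the lone control varies like the other group. edgeR called 0 genes under each of its settings, while DESeq2 called 181 genes, or 478 with no filter on low counts (chosen after seeing the data). Deviations of libraries with the same replicate number correlated at -0.07, -0.06 and 0.05, and 1 of 6 libraries correlated best with its own number. Controls 1 and 3 were nearly identical, so their numbers could not be told apart, and this check could not decide whether libraries were paired. With 6 separate libraries and a replicate block edgeR called 0 genes and the subunit median was 1.47. The cause of these shifts was not tested. Depth was lowest in the library labelled Rbfox2-deleted 1, where Bbs10 had 0 counts and Cct2 had 368, the lowest count of a subunit in any library.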
